A study of Rattus norvegicus with 6 samples.

Results

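The 5 NF-κB subunit genes (Nfkb1, Nfkb2, Rel, Rela and Relb) and 5 genes of its inhibitors and negative feedback (Nfkbia, Nfkbie, Nfkbiz, Tnfaip3 and Bcl3) were examined in primary rat microglia stimulated with lipopolysaccharide (LPS) in the absence or presence of siponimod. The 10 genes were taken by name from the 23139 genes listed in each of the 6 count tables, and all 10 were among the 11977 genes with enough counts to be tested. Microglia were shaken off mixed cultures of postnatal day 1 Wistar rat cortex and purified by magnetic sorting against CD11b/c. One day after isolation, all cultures received 100 ng/mL LPS, either with the solvent (LPS + DMSO, n = 3) or with 50 µM siponimod, a modulator of sphingosine 1-phosphate receptors (LPS + Siponimod, n = 3), and polyA-selected mRNA was sequenced. None of the 6 libraries came from a culture without LPS. Differences are given for LPS + Siponimod relative to LPS + DMSO, and none shows the response to LPS itself. Cells of a postnatal culture with 10% foetal calf serum limit how far these levels describe microglia in the adult brain. The methods name 1 and 3 days of stimulation for the cultures of the study, and its transcript measurements by quantitative PCR were made after 1 day, without a separate statement for the sequenced libraries. Many NF-κB feedback genes respond to LPS within hours, and both times named lie after that first phase. Whether a library came from 1 animal or from pooled animals was not given in the sources used here.

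NF-κB factors are dimers of proteins that share the Rel homology domain. RelA, RelB and c-Rel (the products of Rela, Relb and Rel) carry a transactivation domain, whereas p50 and p52 are processed from the precursors encoded by Nfkb1 and Nfkb2 and lack one. In resting cells, inhibitors of the IκB family hold the dimers in the cytosol. LPS acts through Toll-like receptor 4 on the IκB kinase complex, which marks IκBα for destruction, and the freed dimers bind κB sites in DNA. Several of the genes that NF-κB switches on encode its own subunits and inhibitors, a loop that limits the response of microglia and macrophages to LPS.

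The promoters of most of the 10 genes held a match to the κB consensus. The κB consensus was searched on both strands of the RefSeq promoter windows (build GRCr8, 250 bases before to 50 bases after each gene's start). It consists of 3 guanines, a purine, 2 free positions, 2 pyrimidines and 2 cytosines. Windows were found for 9 of the 10 genes, all except Relb, and 8 of these 9 held at least 1 match. Rela was the gene with a window and no match, which says only that these letters do not occur in it. Of all 27457 windows, 7.6% held a match, and of the 9003 windows of tested genes 10.1% did. A match is a description of the sequence and not a measured binding site. The matches of the 8 genes are printed 5′ to 3′ on the strand of the gene, with the matching bases in capitals and the flanking bases in lower case, so that they can be compared between the genes.

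Nfkb2, chr1:255108344-255108373 (+): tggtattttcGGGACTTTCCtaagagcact

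Nfkb1, chr2:226805440-226805469 (-): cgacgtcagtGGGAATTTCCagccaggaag

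Rel, first place, chr14:101922138-101922167 (-): gcgcgcccccGGGAGCTCCCcgcgcgagcg

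Rel, second place, chr14:101922001-101922030 (-): cgtaggcagcGGGAAATCCCcccccgttcc

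Nfkbia, chr6:78597084-78597113 (-): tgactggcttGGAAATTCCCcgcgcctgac

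Nfkbie, chr9:22948017-22948046 (-): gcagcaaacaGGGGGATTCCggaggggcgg

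Nfkbiz, chr11:58251698-58251727 (+): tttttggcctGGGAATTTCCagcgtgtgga

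Bcl3, chr1:88613574-88613603 (-): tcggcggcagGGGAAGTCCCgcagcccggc

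Tnfaip3, first place, chr1:15544130-15544159 (-): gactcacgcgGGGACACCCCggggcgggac

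Tnfaip3, second place, chr1:15544027-15544056 (-): tcacgtgactGGAAAGTCCCtcggaaatcc

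Tnfaip3, last place, chr1:15544015-15544044 (-): aaagtccctcGGAAATCCCCctgtggcgaa

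Nfkb1, Nfkbiz and, read on the other strand, Nfkbia carried the same 10 bases. A different run of 10 bases was common to Nfkb2 and, on the other strand, the second place in Tnfaip3. The match of Nfkbia and the second and the last of Tnfaip3 read as the consensus on the reverse strand. Each of the places in Rel holds a second match shifted by 1 base, which was counted with it, and the shifted match at its second place has the 10 bases of the last place in Tnfaip3. In the promoters of Nfkb2, Nfkbia, Nfkbiz and Bcl3 the first base of the match lay 20, 31, 13 and 38 bases before the start, and in Nfkb1 it was base 4 of the transcript.

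Depth was high enough that no value of the 10 genes was limited by counting. Total counts were 39484979, 38301365 and 38080379 in LPS + DMSO replicates 1, 2 and 3, and 46643859, 43336006 and 38857441 in LPS + Siponimod replicates 1, 2 and 3. The smallest count of any of the 10 genes in any library was 395, for Rel in LPS + DMSO replicate 2. Levels are stated as CPM, the counts of a gene scaled to library size with edgeR's TMM factors, and the mean ± SD is taken over the 3 libraries of a condition (n = 3). Reads of a long transcript add up, and transcript lengths were not used, so that CPM of different genes are not compared, except to name the gene with the most counts of a marker list. A gene was called higher or lower when edgeR's quasi-likelihood test gave an adjusted p of at most 0.05 and the fold change was at least 1.5.

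LPS + DMSO replicate 3 stood apart from the other libraries of its condition. Its log2 CPM over tested genes had a correlation of 0.935 with replicate 1 and of 0.945 with replicate 2, which had 0.983 with each other. Olig1, a transcription factor gene of oligodendrocyte precursors, had 515 counts in this library, 17 in LPS + Siponimod replicate 3 and at most 5 in each of the other four. Map2, a neuronal cytoskeleton gene, had 162 and 115 counts in the libraries numbered 3 and at most 3 in the rest. Summed over 8 genes of the oligodendrocyte lineage, the level was 5.34, 5.37 and 36.0 CPM with LPS + DMSO and 11.4, 10.3 and 22.6 CPM with LPS + Siponimod. The 7 neuronal markers summed to 1.73, 1.01 and 11.4 CPM against 4.39, 5.78 and 15.2 CPM.

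Microglial markers were abundant in every library, and their summed CPM was lower with siponimod. The 13 markers summed to 10115, 8203 and 5409 CPM in LPS + DMSO replicates 1, 2 and 3 and to 3443, 4988 and 2618 CPM with LPS + Siponimod, and Csf1r, the receptor that microglia depend on, had the highest mean CPM over the 6 libraries, unadjusted for length, while in both libraries numbered 3 Itgam was above it. Itgam, which encodes CD11b, Aif1, which encodes Iba1, and Cx3cr1 were called lower, none was called higher and the remaining 10 were not called. With the replicate number as a block, 8 of the 13 were called lower and 1 higher, beside 16.4% and 17.7% of all genes. Among markers of other cell types, Mbp (oligodendrocytes) and Dcn (fibroblasts) were called higher and S100a8 (neutrophils) lower. Their lists had 3, 5 and 2 tested genes, of which no other was called, beside 25.3% of all genes. Apart from Dcn, the fibroblast or mural list summed lower with siponimod in pairs 1 and 2 and higher in pair 3. The share of counts in mitochondrial genes was 1.54%, 1.39% and 1.41% with LPS + DMSO and 0.313%, 0.610% and 0.568% with LPS + Siponimod. In a bulk sample, fewer cells of a type and less RNA of a gene per cell cannot be told apart. The part of these differences in the values given for the NF-κB genes was not tested.

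**Figure D1:**
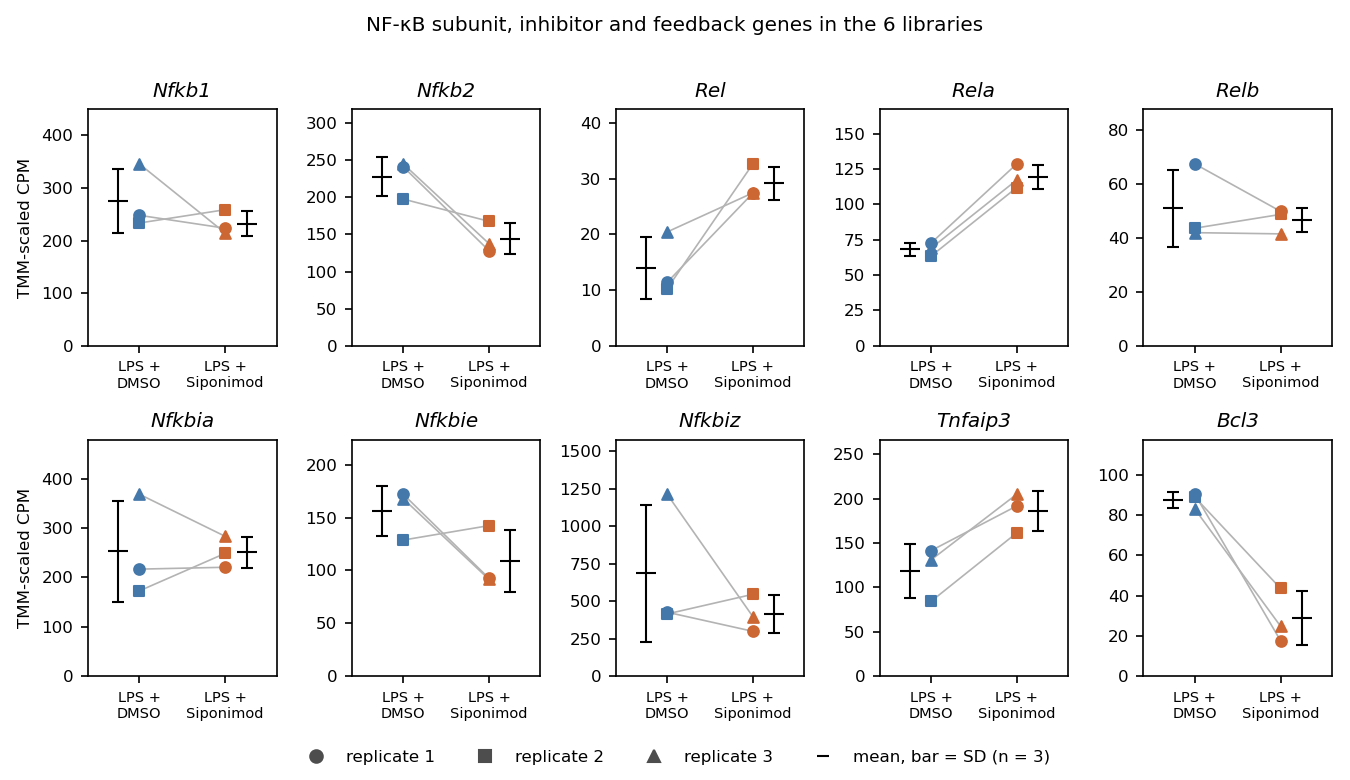
Level of each of the 10 genes (TMM-scaled CPM, linear axis from 0, own scale for each gene) in the 3 LPS + DMSO and the 3 LPS + Siponimod libraries, with lines joining libraries of the same replicate number and bars for mean ± SD. The groups stand apart for Rela, Rel and Tnfaip3 (higher with siponimod) and for Nfkb2 and Bcl3 (lower), and LPS + DMSO replicate 3 lies above all other libraries for Nfkb1, Nfkbia and Nfkbiz.

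Of the 10 genes, Rela and Rel were called higher and Nfkb2 and Bcl3 lower with LPS + Siponimod, and the other six were not called. Called genes made up 25.3% of all genes tested (13.6% higher and 11.7% lower), against 4 of 10 here, a difference on which 10 genes allow no reading. With the replicate number as a block, Tnfaip3 was called higher as well, making 5 of 10 beside 34% of all genes (17.7% higher and 16.4% lower). CPM of the conditions did not overlap for 5 of the 10 genes, 3 higher and 2 lower, which is near the 49.3% of all genes (25.3% higher and 24% lower). All 3 pairs of same-numbered libraries moved the same way for 5 of the 10, whereas 70.8% of all genes did so. The 10 genes thus went in both directions, with a median log2 fold change (FC) of -0.19 where the median of all genes was -0.02.

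Rela, which encodes the transactivating partner of the p50/RelA dimer, was measured at 72.5, 63.3 and 68.9 CPM in LPS + DMSO replicates 1, 2 and 3. With LPS + Siponimod it reached 129, 112 and 117 CPM. Every siponimod library lay far above every control library, and the spread within each condition was narrow (68.2 ± 4.63 against 119 ± 8.53 CPM). Rela rose 1.75-fold (log2 FC 0.80 with a standard error, SE, of 0.12 and edgeR adjusted p = 0.00886). The increase was nearly equal in the 3 pairs, at 0.83, 0.82 and 0.77 on the log2 scale. Without LPS + DMSO replicate 2 the edgeR adjusted p was 0.0508, and in the other five fits that left out 1 library the call remained.

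Rel encodes c-Rel, the subunit that in macrophages is tied to cytokine genes such as that of the IL-12 p40 chain. Its level was 11.4, 10.3 and 20.4 CPM with LPS + DMSO and 27.4, 32.7 and 27.5 CPM with LPS + Siponimod. The conditions did not overlap, although LPS + DMSO replicate 3 stood close to the siponimod libraries. Rel rose 2.08-fold (14.0 ± 5.58 against 29.2 ± 3.02 CPM, log2 FC 1.06 with SE 0.28, edgeR adjusted p = 0.0380). Within pairs the difference was 1.26, 1.67 and 0.43 on the log2 scale. Leaving out LPS + DMSO replicate 3 raised the log2 FC to 1.43 (adjusted p = 0.0105, edgeR), and without LPS + DMSO replicate 1 or 2 or any 1 of the siponimod libraries the adjusted p lay between 0.0914 and 0.114.

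Nfkb2, whose precursor p100 is itself an inhibitor of RelB until it is processed to p52, went the other way. It was at 241, 198 and 245 CPM with LPS + DMSO and at 128, 168 and 138 CPM with LPS + Siponimod. All 3 siponimod libraries were below all control libraries, and pair 2 showed the smallest step. The decrease was 1.58-fold (228 ± 26.3 against 144 ± 20.6 CPM, log2 FC -0.66 with SE 0.16, edgeR adjusted p = 0.0301). Pair differences were -0.91, -0.24 and -0.83 on the log2 scale. With 1 library left out the adjusted p was 0.0259 and 0.0478 (edgeR, without LPS + Siponimod replicate 2 and LPS + DMSO replicate 3), and without LPS + DMSO replicate 1 or 2 or LPS + Siponimod replicate 1 or 3 it ranged from 0.0680 to 0.125. The log2 FC of Nfkb2 in these latter fits, none of which called it, ran from -0.74 to -0.58.

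Nfkb1, the gene of p50, had 248, 233 and 346 CPM with LPS + DMSO and 224, 259 and 215 CPM with LPS + Siponimod. The conditions overlapped, and LPS + DMSO replicate 3 was the highest library. No call was made (log2 FC -0.25 with SE 0.19, edgeR adjusted p = 0.358), and with pairs 1 and 2 alone the log2 FC was 0.01. Relb, which encodes the main partner of p52, was measured at 67.3, 43.5 and 41.9 CPM against 49.8, 48.6 and 41.4 CPM. Here LPS + DMSO replicate 1 was the highest library and the others overlapped fully. Its log2 FC was -0.13 with a SE of 0.21 (edgeR adjusted p = 0.673) and 0.14 without LPS + DMSO replicate 1.

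**Figure D2:**
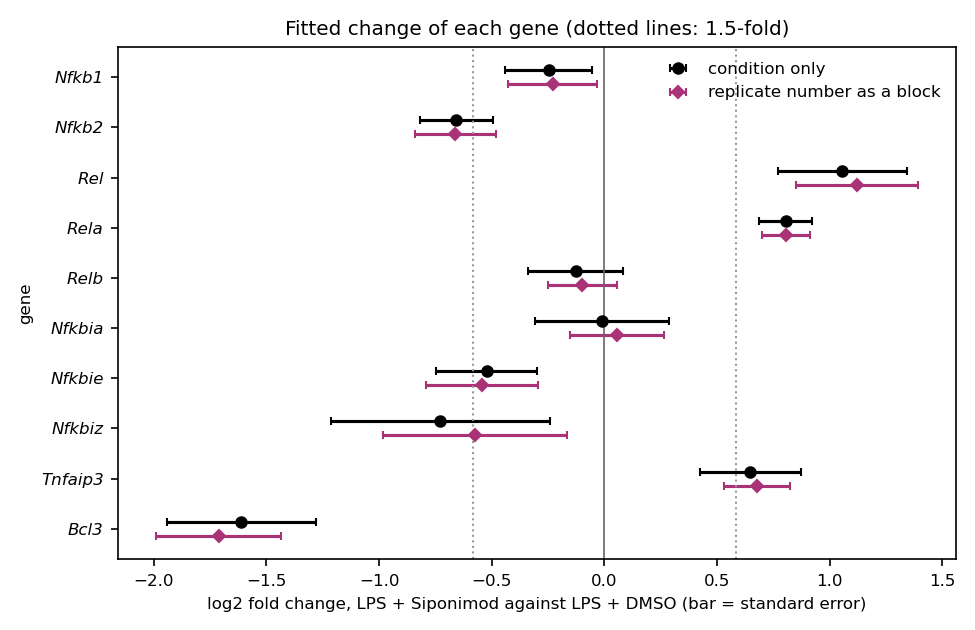
Fitted log2 fold change of each gene, LPS + Siponimod against LPS + DMSO, with its standard error, from the fit with condition only (black circles) and with the replicate number as a block (purple diamonds). Dotted lines mark 1.5-fold in either direction. Rela (0.80), Rel (1.06), Nfkb2 (-0.66) and Bcl3 (-1.61) were called in both fits, and Tnfaip3 lies beyond the line at 0.65 and 0.68.

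To set genes of partner proteins against each other, their ratio was taken within each library, where scaling to library size cancels. Only the difference of a log2 ratio between conditions is read, because its absolute value depends on transcript length, and no test was made. The log2 ratio of Relb to Rela was -0.11, -0.54 and -0.72 with LPS + DMSO and -1.37, -1.20 and -1.50 with LPS + Siponimod. It was lower in every siponimod library, with a mean difference of -0.90. Nfkb2 to Nfkb1 went from -0.04, -0.24 and -0.50 to -0.80, -0.63 and -0.64. These conditions did not overlap either, with a mean difference of -0.43, though in pair 3 the step was only -0.14. For Nfkbia to Rela, the inhibitor against its main client, the log2 ratio was 1.58, 1.45 and 2.42 against 0.78, 1.15 and 1.27. It was lower in all 3 pairs, with differences of -0.80, -0.29 and -1.15, and the mean difference was -0.75. LPS + DMSO replicate 3 had the highest ratio, and the mean difference is smaller without this library. Relb and Nfkbia themselves were not called (log2 FC -0.13 and -0.01), whereas Rela was (0.80). The lower ratios to Rela thus largely repeat its rise and are not separate results. Rel to Rela, both of which rose, overlapped between the conditions (-2.35 ± 0.52 against -2.03 ± 0.23) and moved by 0.44, 0.85 and -0.34 in the 3 pairs.

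**Figure D3:**
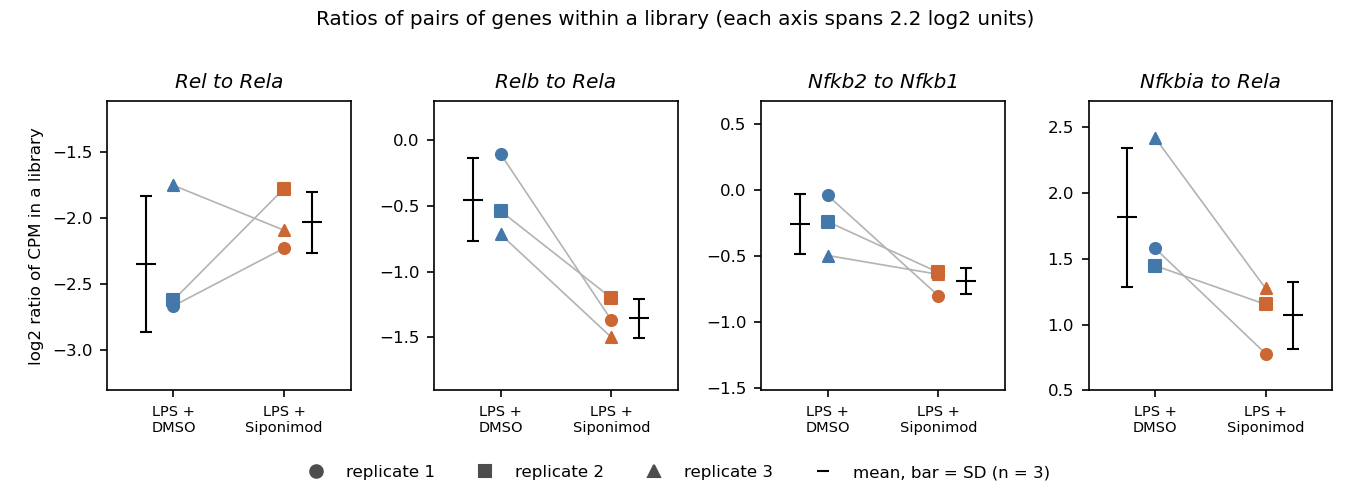
Log2 ratio of the CPM of 2 genes within each library (n = 3 per condition, lines join libraries of the same replicate number, bars are mean ± SD, each axis spans the same number of log2 units). The ratios of Relb to Rela, Nfkb2 to Nfkb1 and Nfkbia to Rela lie lower in all siponimod libraries than in any LPS + DMSO library, and that of Rel to Rela overlaps.

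Among the inhibitors and feedback genes, Bcl3 showed the largest change. Its product is a nuclear IκB protein that binds p50 and p52 homodimers at κB sites. Bcl3 was at 90.5, 89.0 and 83.1 CPM with LPS + DMSO, the tightest control values of the 10 genes relative to their mean, and at 17.6, 43.6 and 24.8 CPM with LPS + Siponimod. The siponimod libraries were all lower, replicate 2 the least so. Bcl3 fell 3.05-fold (87.5 ± 3.91 against 28.6 ± 13.4 CPM, log2 FC -1.61 with SE 0.33, edgeR adjusted p = 0.0189). The pairs differed by -2.36, -1.03 and -1.74 on the log2 scale. The call remained without LPS + DMSO replicate 3 (adjusted p = 0.0272, edgeR) and without LPS + Siponimod replicate 2 (0.00701), and without LPS + DMSO replicate 1 or 2 or LPS + Siponimod replicate 1 or 3 the adjusted p was between 0.0555 and 0.0731. In the fits without a call the log2 FC of Bcl3 ran from -1.59 to -1.36.

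Tnfaip3 encodes A20, a ubiquitin-editing enzyme that shuts off signalling to the IκB kinase complex. It was measured at 141, 84.1 and 131 CPM with LPS + DMSO and at 192, 161 and 205 CPM with LPS + Siponimod. Each siponimod library was above each control library, and LPS + DMSO replicate 2 was the lowest library. In the fit without a block, Tnfaip3 was not called (119 ± 30.4 against 186 ± 22.3 CPM, log2 FC 0.65 with SE 0.22, edgeR adjusted p = 0.0742). The 3 pairs differed by 0.44, 0.94 and 0.65 on the log2 scale, and with the replicate number as a block it was called higher (log2 FC 0.68 with SE 0.15, adjusted p = 0.0236, edgeR). DESeq2 also called it (adjusted p = 0.0310).

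Nfkbia, the gene of IκBα and a standard readout of NF-κB activity, did not separate the conditions. Its level was 217, 173 and 369 CPM with LPS + DMSO and 221, 249 and 283 CPM with LPS + Siponimod. The siponimod libraries lay inside the range of the controls. The log2 FC was -0.01 with a SE of 0.30 (edgeR adjusted p = 0.982), the smallest of the 10. Without LPS + DMSO replicate 3 the log2 FC was 0.37 (adjusted p = 0.165, edgeR).

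Nfkbie, which encodes IκBε, a slower acting relative of IκBα, was at 172, 129 and 168 CPM against 92.5, 142 and 91.5 CPM. The conditions overlapped, with pair differences of -0.90, 0.15 and -0.88 on the log2 scale. It was not called (log2 FC -0.52 with SE 0.23, edgeR adjusted p = 0.126), except without LPS + Siponimod replicate 2 (log2 FC -0.77, adjusted p = 0.0357, edgeR).

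Nfkbiz encodes IκBζ, a nuclear member of the family that is needed for the induction of some NF-κB targets, Il6 among them. It had 426, 414 and 1214 CPM with LPS + DMSO and 298, 546 and 397 CPM with LPS + Siponimod. LPS + DMSO replicate 3 was far above the other five libraries, which overlapped. The log2 FC of -0.73 (standard error 0.49, edgeR adjusted p = 0.291) was -0.02 without this library (adjusted p = 0.959, edgeR).

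The other genes of the pathway were examined by function in 6 lists. Of 76 genes that act between the receptor complex and the nucleus, 70 were tested, and 16 were called (9 higher and 7 lower, 22.9% beside the 25.3% of all genes). These shares are near the background and the lists are described by the genes that moved.

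Of 13 kinases and their partners, 1 was called higher and 2 lower, with a median log2 FC of -0.33. Ikbke and Tbk1, which encode the IκB kinase-related kinases of the interferon branch, fell from 11.5 ± 3.46 to 4.21 ± 1.38 CPM (log2 FC -1.44 with SE 0.34, edgeR adjusted p = 0.0273) and from 114 ± 13.8 to 73.0 ± 10.2 CPM (log2 FC -0.64, edgeR adjusted p = 0.0295). Tab3, an adaptor of the kinase TAK1, rose from 5.60 ± 0.70 to 10.8 ± 0.957 CPM (log2 FC 0.95, edgeR adjusted p = 0.0142). The genes of TAK1 itself and of IKKα were not called (Map3k7, log2 FC 0.06, and Chuk, 0.08). Map3k8, the gene of the kinase Tpl2 that p105 holds inactive, was at 74.3 to 175 CPM in the controls and lower in each siponimod library (log2 FC -1.06, edgeR adjusted p = 0.0611), and with the replicate block it was called (log2 FC -0.99, adjusted p = 0.0280, edgeR). Ikbke and Tbk1 lost their calls without LPS + DMSO replicate 1 or 2 or LPS + Siponimod replicate 1 or 3 (adjusted p from 0.0785 to 0.128, edgeR), and Tab3 without LPS + DMSO replicate 2 or LPS + Siponimod replicate 1 or 3 (0.0541 to 0.0665).

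Among 19 tested adaptors and ubiquitin ligases, Birc2 was called higher, and Ube2n, Traf5 and Tirap were called lower. Birc2, which encodes cIAP1, a ligase that keeps the alternative NF-κB pathway off, had counts of 2552, 1780 and 1111 with LPS + DMSO and 22816, 6402 and 7035 with LPS + Siponimod (log2 FC 2.48 with SE 0.57, edgeR adjusted p = 0.0261). LPS + Siponimod replicate 1 was the highest by far, and without it the log2 FC was 1.70 (adjusted p = 0.0603, edgeR). Birc2 also lost its call without LPS + DMSO replicate 1 or 2 or LPS + Siponimod replicate 3, with an adjusted p of at most 0.104. Ube2n, the gene of the conjugating enzyme Ubc13 that makes the ubiquitin chains of this pathway, fell from 140 ± 17.7 to 66.2 ± 7.05 CPM (log2 FC -1.08 with SE 0.15, edgeR adjusted p = 0.00797). Its call was kept whichever of the 6 libraries was omitted. Traf5 and the Toll-like receptor adaptor Tirap had log2 FCs of -2.08 and -0.88 (edgeR adjusted p = 0.0332 and 0.0359), and lost their calls without LPS + DMSO replicate 1 or 2 or LPS + Siponimod replicate 1 or 3, Tirap also without LPS + DMSO replicate 3 (adjusted p from 0.0592 to 0.130, edgeR). Ticam2, another Toll-like receptor adaptor gene, was called lower with the replicate block (log2 FC -0.78, adjusted p = 0.0406, against 0.139 without the block, edgeR). Irak1 lay under 1.5-fold (log2 FC 0.45, edgeR adjusted p = 0.0413) and Birc3 was not called (0.46).

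In the machinery that destroys IκB, 1 of 5 genes was called. Cul1, the scaffold of the ligase, rose from a mean of 83.2 to 140 CPM (log2 FC 0.75 with SE 0.18, edgeR adjusted p = 0.0288), whereas Skp1, its adaptor, had a log2 FC of -0.49 (edgeR adjusted p = 0.0508). Rbx1 and Fbxw11 were not called (log2 FC -0.31 and -0.16). Cul1 was not called without LPS + DMSO replicate 1 or 2 or LPS + Siponimod replicate 1 or 3 (adjusted p from 0.0694 to 0.111, edgeR).

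Inhibitors outside the 10 genes were called higher in 3 of 20 cases and lower in 1. Nfkbib, the gene of IκBβ, had 1794, 1415 and 1806 counts with LPS + DMSO and 7413, 4399 and 5040 with LPS + Siponimod. All siponimod libraries were above all controls, unlike for its relatives Nfkbia and Nfkbie (log2 FC 1.51 with SE 0.22, edgeR adjusted p = 0.00883), and the call was kept in all 6 fits without 1 library. Otud7b, which encodes the deubiquitinase Cezanne, rose from 11.1 ± 2.37 to 54.9 ± 19.8 CPM (log2 FC 2.31, edgeR adjusted p = 0.00832). Tax1bp1, the gene of an A20 partner and autophagy receptor, rose from 159 ± 13.6 to 381 ± 93.3 CPM (log2 FC 1.26, edgeR adjusted p = 0.0114). Tnip1, which encodes another A20 partner, ABIN1, fell from 406 ± 36.7 to 223 ± 54.7 CPM (log2 FC -0.87 with SE 0.21, edgeR adjusted p = 0.0275). Nlrx1 and Tnip2 were not called (log2 FC -0.65 and -0.38). Otud7b was called in all 6 fits without 1 library, Tax1bp1 in all but that without LPS + DMSO replicate 2 (adjusted p = 0.0602, edgeR), and Tnip1 only without LPS + DMSO replicate 3 or LPS + Siponimod replicate 2 (up to 0.114 in the others).

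For nuclear cofactors, 3 of 13 genes were called higher and 1 lower. Sirt1, whose product removes acetyl groups from RelA, rose from 14.5 ± 2.73 to 39.7 ± 4.63 CPM (log2 FC 1.45 with SE 0.18, edgeR adjusted p = 0.00724). The corepressor gene Ncor1 (log2 FC 0.61) and Akirin2 (0.88), a nuclear factor needed for some LPS-induced genes, were called higher too. The histone deacetylase gene Hdac1 was called lower (log2 FC -1.16 with SE 0.23, edgeR adjusted p = 0.0183), while Hdac2 and Hdac3 were not called (-0.31 and -0.28). Sirt1 was called in all 6 fits without 1 library. Without LPS + DMSO replicate 2 or LPS + Siponimod replicate 1 or 3, Ncor1, Akirin2 and Hdac1 were not called, nor was Akirin2 without LPS + DMSO replicate 1 (adjusted p up to 0.0962, edgeR). Without LPS + DMSO replicate 3, Ncor1 had an adjusted p of 0.0295 (edgeR) and a log2 FC of 0.55, which is under 1.5-fold.

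**Figure D4:**
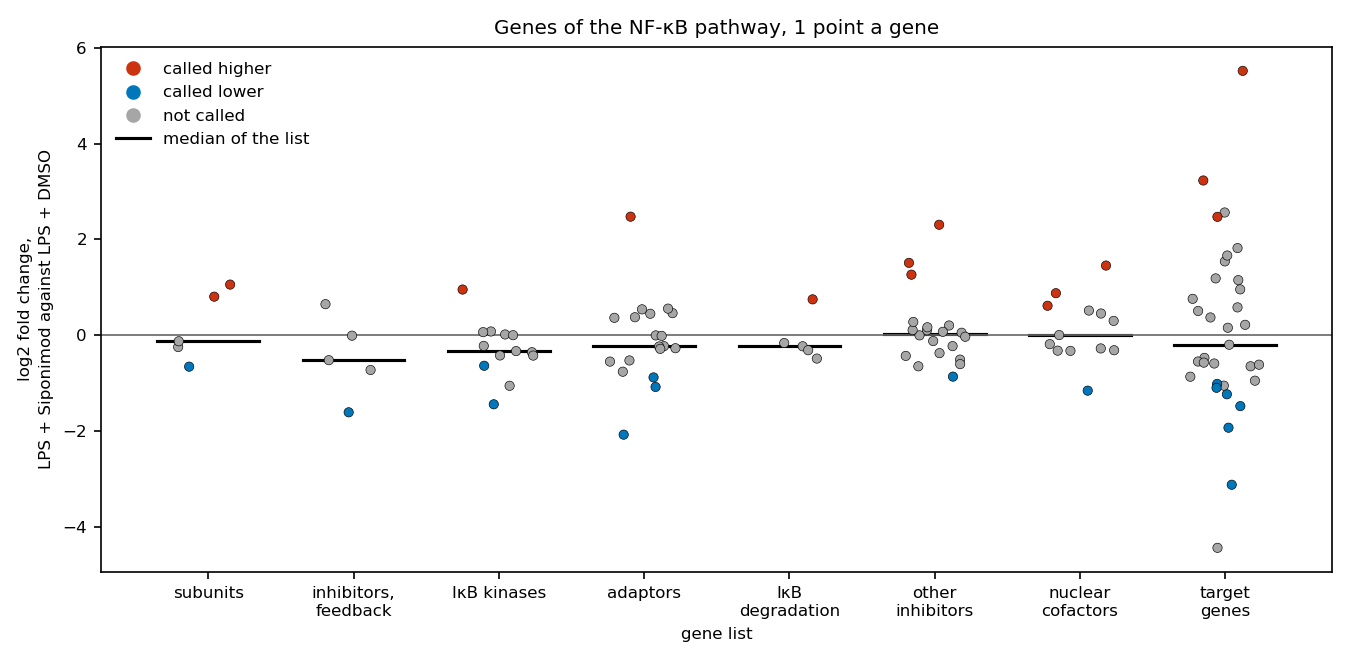
Fitted log2 fold change, LPS + Siponimod against LPS + DMSO, of each tested gene of the NF-κB pathway by list (1 point a gene, red called higher, blue called lower, grey not called, black line the median of the list). Each of the 8 lists holds genes on both sides of 0, and the 33 target genes spread furthest, from -4.44 for Lta, which was not called and had 63, 161 and 4255 counts with LPS + DMSO against 27, 132 and 82, to 5.52 for Ptgs2.

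Genes known to be driven by NF-κB split in both directions. Of 33 tested, 16 lay above 0 and 17 below it (median log2 FC -0.20), and 3 were called higher and 6 lower, 27.3% beside the 25.3% of all genes. With the replicate block the median was 0.30. Ptgs2, which encodes cyclooxygenase 2, had 1430, 1116 and 6935 counts with LPS + DMSO and 144018, 107198 and 253022 with LPS + Siponimod (log2 FC 5.52 with SE 0.94, edgeR adjusted p = 0.0123). The early response gene Ier3 (log2 FC 3.23) and the signalling adaptor gene Traf1 (2.47) were the other two called higher. Sod2, the mitochondrial superoxide dismutase gene, fell from 5047 ± 349 to 2492 ± 181 CPM (log2 FC -1.02 with SE 0.19, edgeR adjusted p = 0.0145). Cd80, a costimulatory ligand gene, and Cxcl10, an interferon-dependent chemokine gene, had log2 FCs of -1.93 and -3.12 (edgeR adjusted p = 0.0182 and 0.0209). Without LPS + DMSO replicate 3 the log2 FC was 6.85 for Ptgs2 and 4.26 for Ier3, and without LPS + Siponimod replicate 2 it was -4.21 for Cxcl10. Traf1 was called in all 6 fits without 1 library, and Ptgs2 in all but that without LPS + DMSO replicate 2 (adjusted p = 0.0508, edgeR). Ier3, Sod2, Cd80 and Cxcl10 were not called without LPS + DMSO replicate 2 or LPS + Siponimod replicate 1 or 3, and Ier3 and Cxcl10 also without LPS + DMSO replicate 1 (adjusted p from 0.0547 to 0.0866, edgeR).

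The balance of these target genes changed with the libraries included, most of all LPS + DMSO replicate 3. Their median difference was 0.55 in pair 1 and 0.79 in pair 2 on the log2 scale, and -0.41 in pair 3. Tnf had 2783, 5994 and 21114 counts with LPS + DMSO and 4083, 8390 and 5638 with LPS + Siponimod. Its log2 FC was -0.95 (standard error 0.74, edgeR adjusted p = 0.358) and 0.26 without LPS + DMSO replicate 3. Il1b had 51576, 53699 and 207703 against 48401, 54252 and 72773 counts, and was not called (log2 FC -1.05, edgeR adjusted p = 0.229, and -0.05 without LPS + DMSO replicate 3). Il6 counts were 543, 235 and 5335 against 2952, 1584 and 3441, with a log2 FC of 0.15 that was 1.34 with the replicate block and became 2.56 without LPS + DMSO replicate 3 (adjusted p = 0.0242, edgeR). In that fit 14 of the target genes were called higher and 5 lower, beside 15.9% and 14.5% of all genes, and with the replicate block 7 were called higher and 6 lower, beside 17.7% and 16.4%. Without LPS + Siponimod replicate 1 or 3, 2 were called higher and 0 lower, without LPS + DMSO replicate 1 the counts were 2 and 2, and without LPS + DMSO replicate 2 they were 1 and 0, in fits that called 651 to 1743 of all genes. Of the target genes with a promoter window, 9 of 23 (39.1%) held a κB match.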

How the data were processed

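Reads of 6 libraries were converted with bcl2fastq (version 2.20.0.422), trimmed and mapped to the rat genome mRatBN7.2 in the CLC Genomics Workbench by the authors, who deposited total read counts per gene without normalization. How reads matching several genes and the strand were handled was not given in the sources used here, so that overlapping genes remain uncertain. One row without a name was left out.

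Tests used edgeR (version 4.0.16) under R (version 4.3.3): TMM scaling, filterByExpr (minimum count 10, minimum total 15), glmQLFit and glmQLFTest with condition as the only term, and Benjamini-Hochberg adjustment over 11977 genes. Standard errors were derived from each log2 FC and its F statistic (absolute log2 FC over root F), and pair differences use a prior count of 2. With 3 libraries against 3, an exact permutation test of a single gene cannot go below p = 0.10, and p-values measure the spread between these libraries. On counts simulated for 11977 genes of this comparison, 50, 50 and 100 genes were changed by 1, 2 and 3 on the log2 scale. Of these, 10%, 66% and 83% were called in the right direction, with 5 unchanged genes called. So few changed genes make the adjustment stricter than in the measured counts, where 25.3% of genes were called. These shares are therefore not the sensitivity of the comparison itself.

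Replicate numbers occur in both conditions. Deviations from the condition mean correlated at 0.42, 0.545 and 0.611 between same-numbered libraries and from -0.534 to 0.0856 between the others, and the numbers were taken to pair the libraries on this evidence. The deviations of a gene cancel out within a condition, so that higher same-numbered values lower the others by construction. This evidence also comes from the counts that were then fitted with the block. Alternatives were RLE scaling, DESeq2 (version 1.42.0), limma-voom (limma version 3.58.1), the likelihood ratio test, other filters, the replicate number as a block and each library left out in turn. A fit of pairs 1 and 2 alone was added after the data were seen.

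The 10 genes and all gene lists, written from general knowledge, were chosen with earlier results of these data known. Of each pathway list, up to 3 genes per direction with the smallest adjusted p were named, and Tnf, Il1b and Il6 besides; of each marker list, the gene with the highest mean CPM over the libraries. Olig1, Map2, Aif1, Itgam, Cx3cr1, Gfap, Kdr, Elane, Mpo, Lta and Ticam2 were chosen after their values were seen. Commd1, Ep300, Junb, Rnf11 and Ticam1 are not listed under these symbols in the count tables, nor are the markers Cd4 and Cldn5. Promoter windows are from RefSeq (GRCr8), a different build than that of the mapping. Protein sequences were not used here.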

Additional observations from a re-analysis of the deposited data

How the results depend on the processing

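Of the 10 genes, 2 were called higher and 2 lower under RLE scaling, limma-voom, the likelihood ratio test and both other filters, and 3 higher and 2 lower with DESeq2 and with the replicate block, Tnfaip3 being added by both. Over all genes, DESeq2 called 1974 higher and 1924 lower and the block 2114 and 1960. The block changed no other call among the 10 genes. Leaving out 1 library gave 0 to 2 called higher and 0 to 3 lower, beside 651 to 3713 of all genes (469 to 1941 higher and 182 to 1772 lower). By list, these fits gave 0 to 1 higher and 0 to 2 lower among kinases, 0 to 3 and 1 to 4 among adaptors, 0 to 1 higher and 0 lower in degradation, 2 to 3 and 0 to 2 among other inhibitors, 1 to 3 and 0 to 1 among nuclear cofactors, and 1 to 14 and 0 to 6 among targets. With pairs 1 and 2 alone, 0 of the 10 genes, 1 kinase, 0 other inhibitors and 2 targets were called lower, beside 983 of all genes. Called higher in that fit were 2 of the 10 genes (Rel and Rela), 0 degradation genes, 1 cofactor and 11 targets, beside 1335 of all genes. DESeq2 and the likelihood ratio test each called 2 other inhibitors lower, and the block 7 targets higher.

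Among the genes followed through every alternative, signs of genes that were not called turned as follows, and the cause was not tested. With 1 library left out, the log2 FC ranged from -0.25 to 0.14 for Relb, from -0.20 to 0.37 for Nfkbia, from -0.033 to 0.28 for Chuk, from -1.37 to 0.26 for Tnf and from -0.34 to 2.56 for Il6. Nfkbia was at 0.058 with limma-voom and at 0.057 with the block. Some other genes of the lists turned with the block too, among them Il1a, from -0.55 to 1.36. With pairs 1 and 2 alone the log2 FC was 0.0059 for Nfkb1, 0.27 for Nfkbia, 0.0097 for Nfkbiz and 0.26 for Tnf. The ratios between genes kept their direction with other prior counts. A gene that was not called with 3 libraries a condition may still have changed.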

Other observations

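Some markers of other cell types moved with siponimod. For each list the gene with the highest mean CPM over the 6 libraries is named, unadjusted for length, which need not lead in each library. Of 7 fibroblast or mural genes, 5 were tested, and Dcn, which encodes the matrix proteoglycan decorin, was called higher (adjusted p = 0.0155, edgeR). It had 3, 0 and 4 counts under LPS + DMSO and 456, 49 and 178 under LPS + Siponimod. The list summed to 6.04, 4.78 and 3.98 CPM against 11.9, 4.64 and 8.67 CPM. Of 8 oligodendrocyte lineage genes, 3 were tested, and Mbp, the myelin basic protein gene, was called higher. It went from 4.02, 4.18 and 2.26 to 10.1, 8.89 and 15.9 CPM (log2 FC 1.74, adjusted p = 0.0172, edgeR). Apart from Mbp, this list summed lower with siponimod in pairs 1 and 3 and higher in pair 2. Of 6 neutrophil genes, 2 were tested, and S100a8, which encodes a calcium-binding alarmin, was called lower (adjusted p = 0.0219, edgeR). It had 70, 65 and 105 counts against 1, 12 and 10. That list summed to at most 3.33 CPM, and Elane and Mpo were at 0 in all libraries. The part of these markers in the values of the NF-κB genes was not tested.

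Summed CPM of 7 astrocyte genes were 42.5, 21.0 and 21.6 with LPS + DMSO and 27.5, 26.8 and 57.7 with LPS + Siponimod, with Slc1a3 leading (not called), and Gfap had 88 counts in LPS + DMSO replicate 3 and at most 2 in each other library. Tubb3 led the neuron markers and was called higher with the replicate block (log2 FC 1.59, adjusted p = 0.0316, edgeR) but not in the fit without it. Endothelial markers summed to 156, 202 and 81.9 CPM with LPS + DMSO and to 37.4, 79.9 and 26.2 CPM with LPS + Siponimod. Their leading gene Cdh5 was called lower with the replicate block (log2 FC -1.48, adjusted p = 0.0142, edgeR) but not in the fit without it. Kdr, a defining endothelial receptor gene, was at 0 in all libraries. Lymphocyte markers, led by Cd8a (not called), summed to at most 2.75 CPM, with 3 of 6 at 0.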
